A study of Mus musculus with 12 samples.

Results

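The p53 target genes described here are Cdkn1a, Plk2, Ccng1, Mdm2, Zmat3, Bbc3, Bax, Trp53inp1, Phlda3 and Sesn1. They were found by symbol in the count tables, and all 10 were present among 55335 entries. RNA was sequenced from mouse small intestinal organoids, which are epithelial cultures grown in a basement membrane gel, in 12 libraries that form 4 groups of 3. All organoids came from 1 female mouse of a line labelled line26 wild type, Lgr5GFPDTR/+, in which 1 copy of Lgr5 carries GFP and the diphtheria toxin receptor, so every group shares that allele. RANKL organoids were pretreated for 3 days with 3 µM CHIR99021, a GSK3 inhibitor, and 1.5 mM valproic acid, which inhibits histone deacetylases. After 1 day in ENR medium (EGF, Noggin and R-spondin) they received RANKL at 100 ng/mL for 6 days, a cytokine that induces M cells, which sample antigens in the gut epithelium. ENR control organoids, which stand against RANKL in the first comparison, are labelled as 6 days of ENR medium. Their sample names begin with CVENR, and the labels neither explain the prefix CV nor state whether these cultures had the pretreatment, so its effects and those of RANKL cannot be told apart. In the second comparison RANKL+CSRM617 organoids had the pretreatment and RANKL together with 40 µM CSRM617, an ONECUT2 inhibitor, and RANKL II organoids had the same course without CSRM617.

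The transcription factor p53, encoded by Trp53, is stabilised by DNA damage and other stress and then binds elements made of a pair of p53 half-sites near its target genes. Its targets halt the cell cycle, trigger apoptosis, restrain growth signalling, and, through Mdm2 and Ccng1, limit p53 itself. In the intestinal epithelium p53 is best known for the response of crypt cells to irradiation. Several of these genes are also regulated by other factors, and Cdkn1a is induced in differentiating enterocytes without p53, so their mRNA levels are not a readout of p53 alone.

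RefSeq promoter windows (GRCm38.p6), which run from 250 bases before to 50 bases after a start site, matched 8 of the 10 genes in 12 windows, and Zmat3 and Trp53inp1 had none. The windows were searched on both strands for the p53 half-site, a motif of 10 letters that reads the same on both strands, and for elements of 2 half-sites with at most 1 mismatch each and up to 13 bases between them. Such elements lay in the windows of 2 genes, Cdkn1a and Ccng1, and in 2.71% of 32851 windows of the same length. The stretches that hold them are shown because they are the closest matches among the genes described. Capitals mark the half-sites, overlapping ones included.
Cdkn1a: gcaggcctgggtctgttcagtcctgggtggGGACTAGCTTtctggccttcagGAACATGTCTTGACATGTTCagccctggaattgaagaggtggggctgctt
Ccng1: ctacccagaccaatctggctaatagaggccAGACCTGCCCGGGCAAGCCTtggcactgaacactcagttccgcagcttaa

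The Cdkn1a stretch is chr17:29090876-29090977 on the plus strand, and its last base is at position -2 from the upstream one of 2 Cdkn1a start sites. The window of the other start (chr17:29093519-29093818) held no half-site and no element. The Cdkn1a stretch shown, before the upstream start, holds an element with no mismatch and 12 bases between its half-sites, at positions -73 to -42. Elements with no mismatch were found in 0.0731% of windows. The second half-site of the Cdkn1a element also begins an element with 1 mismatch and no spacer at -51 to -32. The Ccng1 stretch is chr11:40755432-40755511 on the minus strand, with 1 mismatch and no spacer at -195 to -176. Elements without a spacer lay in 0.204% of windows. Single half-sites with no mismatch, present in 8.36% of windows, were found in 5 of the 8 genes. The 3 genes with a single half-site and no element are shown with 10 bases on each side.
Mdm2: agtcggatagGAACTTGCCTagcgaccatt
Bax: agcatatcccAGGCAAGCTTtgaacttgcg
Sesn1: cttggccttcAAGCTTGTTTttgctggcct

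These matches are letters in a window and no measure of binding. Bases outside the windows were not searched, so a gene without a match here may hold an element elsewhere.

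The libraries held 6351155 to 7719157 counts in RANKL, 5795541 to 7577492 in ENR control, 10225102 to 14041947 in RANKL+CSRM617 and 8669153 to 11241811 in RANKL II. The fewest counts of any of the 10 genes in a library were 28, for Phlda3 in ENR control. Levels are CPM, counts scaled to library size, after edgeR's TMM correction for composition within a table. The ribosomal RNA loci Gm26917 and Gm42418 took 9.71% to 10.7% of counts in RANKL and 21.9% to 35.5% in ENR control, and 15.3% to 15.8% in RANKL+CSRM617 and 6.44% to 6.71% in RANKL II. Mitochondrially encoded genes took 2.52% to 2.89% of counts in RANKL and 5.43% to 7.96% in ENR control, and 8.61% to 11.04% in RANKL+CSRM617 and 6.04% to 6.11% in RANKL II. Fold changes also followed transcript GC content, the share of G and C bases, so a fit with GC offsets is given beside the results. Replicates are labelled as experiments 1 to 3 of 1 organoid line, so the p-values measure spread between these libraries and not between animals. Libraries of the same group were compared by a mean chi-square per gene, which is near 1 where only counting noise separates them. RANKL II pairs gave 1.10, 1.26 and 1.43, while pairs of RANKL+CSRM617 libraries gave 1.18, 4.41 and 5.12. In the first comparison RANKL pairs gave 2.25, 2.35 and 4.21, while pairs of ENR control libraries gave 5.97, 18.1 and 36.7. How far the labelled experiments were independent was not tested. The epithelial markers Epcam, Cdh1, Vil1, Krt8, Krt18 and Krt19 summed to 3571 to 3666 CPM in RANKL and 3533 to 3661 CPM in ENR control, and to 5207 to 5443 CPM in RANKL+CSRM617 and 4277 to 4327 CPM in RANKL II. Immune markers summed to at most 10.5 CPM in any library and stromal and endothelial markers to at most 14.9 CPM, with the stromal and endothelial markers Col1a2, Col3a1 and Cdh5 at 0 throughout. The stromal and endothelial sum was 10.6 to 14.1 CPM in RANKL and 6.13 to 7.30 CPM in ENR control. Of the 7 markers in that sum, 2 were tested in this comparison, and they went apart. Pdgfrb, at a mean of 10.64 CPM in RANKL, was higher than in ENR control (log2 change 1.583, edgeR adjusted p = 1.872e-05). Pdgfra was lower (log2 change -1.392, edgeR adjusted p = 0.004972). In bulk RNA, fewer cells of a type and less RNA per cell cannot be told apart.

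With RANKL, 9 of the 10 p53 target genes rose against ENR control and Sesn1 did not pass the test. Trp53inp1 stood 6.20-fold higher, Cdkn1a 5.73-fold and Zmat3 5.39-fold. Plk2 stood 3.81-fold, Phlda3 3.67-fold and Ccng1 2.48-fold higher, and Bax, Bbc3 and Mdm2 moved least at 1.67-fold, 1.55-fold and 1.39-fold. Over all 13570 genes tested 56.7% passed an edgeR quasi-likelihood adjusted p under 0.05, with 28.7% higher and 28.0% lower, and 56.6% passed with GC offsets. The CPM of the 9 genes did not overlap between groups, which held for 32.2% of all genes in that direction. The 10 genes together took 861 to 909 CPM in RANKL and 275 to 285 CPM in ENR control. Their median log2 change was 1.60, or 1.50 with GC offsets, beside 0.00 and -0.11 over all genes tested. The 10 genes were chosen with earlier results of these data known. Markers of differentiated cells moved in the same libraries. Enterocyte markers gave 4 higher and 1 lower of 5, with sums of 2307 to 3229 CPM in RANKL and 784 to 926 CPM in ENR control, and M cell markers 6 higher of 6, with 689 to 718 CPM in RANKL and 13.6 to 19.6 CPM in ENR control. Stem cell markers gave 1 higher and 2 lower of 4, with 423 to 673 CPM in RANKL and 1524 to 1924 CPM in ENR control, and Paneth cell markers 1 higher and 3 lower of 4, with 364 to 380 CPM in RANKL and 494 to 847 CPM in ENR control. The part of these markers in the changes of the 10 genes was not tested.

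**Figure D1:**
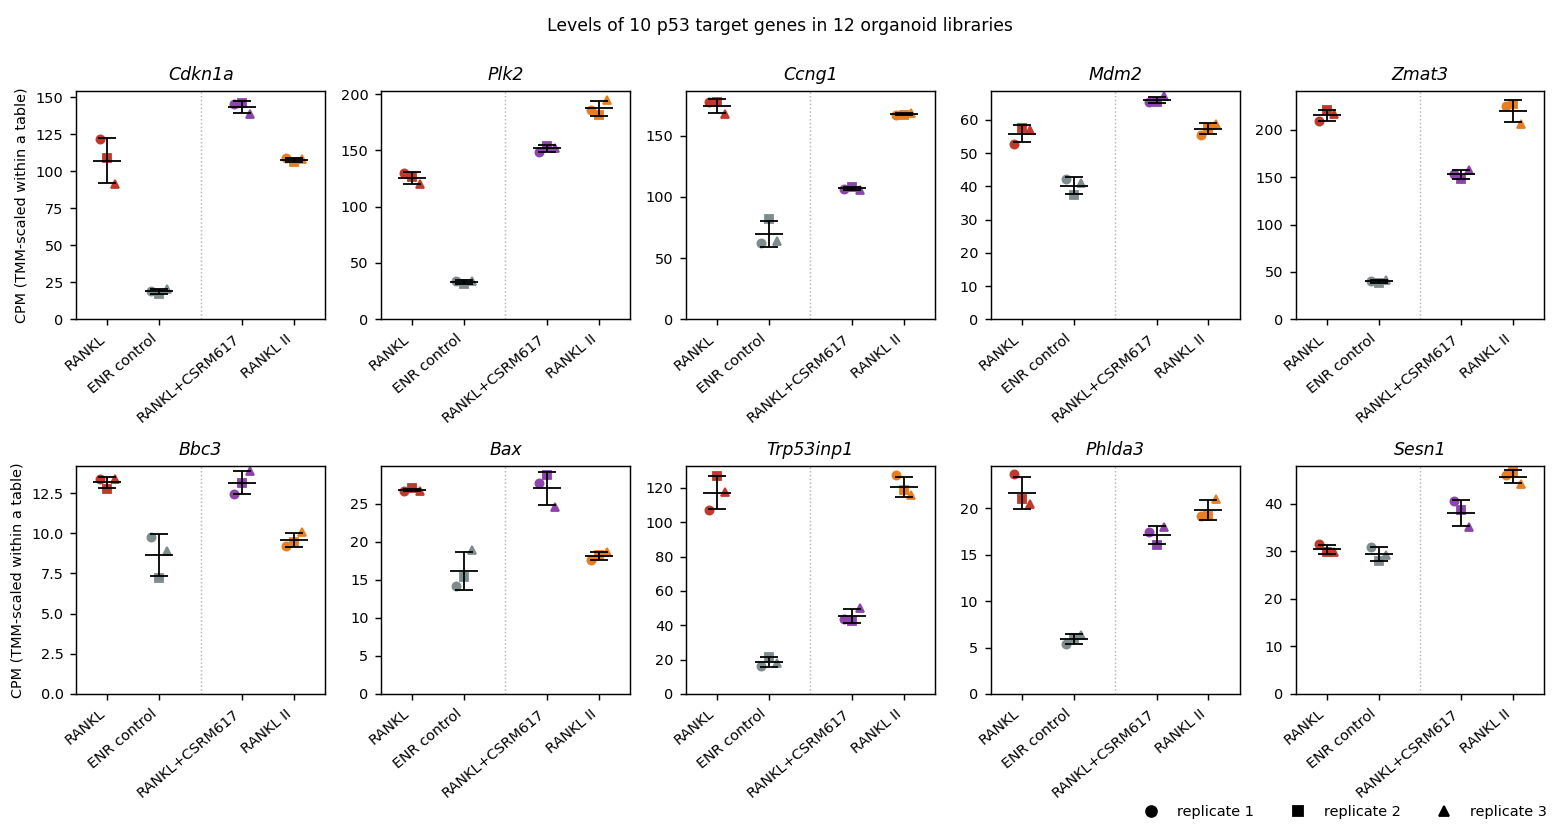
Level of each p53 target gene in every library, as TMM-scaled CPM on a linear axis from 0, with a panel per gene and a marker shape per replicate; long bars are means and short bars 1 SD over 3 libraries. The dotted line separates the tables, which were scaled separately. RANKL lies above ENR control in every panel but Sesn1, where the points overlap, and RANKL+CSRM617 and RANKL II do not overlap in any panel.

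Among the genes that halt the cell cycle, Cdkn1a encodes p21, an inhibitor of cyclin-dependent kinases. It had 122, 109 and 91.3 CPM in the RANKL libraries, against 19.4, 17.1 and 20.3 CPM in ENR control, a log2 change of 2.52 (SE 0.124, adjusted p = 1.29e-10 by edgeR). The groups were far apart, and RANKL replicate 3 was the lowest of its group. The gene (chromosome 17, 29090976 to 29100727, plus strand, GRCm38, 4 exons) shares 273 exonic bases with AC167363.2 on the opposite strand, and the use of strand in counting was not given in the sources used here. Plk2, a polo-like kinase that acts in centriole duplication (chromosome 13, 110395046 to 110400844, plus strand, 9 exons), had 130, 127 and 120 CPM with RANKL, against 34.2, 31.2 and 34.1 CPM in ENR control. Its log2 change was 1.93 (SE 0.0896, adjusted p = 7.21e-11 by edgeR), with a spread within each group far smaller than the gap. Proliferation markers stood lower beside these rises, with 0 higher and 5 lower of 8, or 0 and 7 with GC offsets. Over all genes 28.7% were higher and 28.0% lower, or 22.1% and 34.5% with GC offsets. The markers summed to 1065 to 1302 CPM in RANKL and 1592 to 1649 CPM in ENR control. Mki67, a marker of cycling cells, was at 534 ± 51.9 CPM with RANKL and 583 ± 42.7 CPM in ENR control (SD, n = 3) and did not pass (log2 change -0.12, edgeR adjusted p = 0.25), while it passed at -0.27 with GC offsets. Ccnb1, a mitotic cyclin, was at 19.7 CPM with RANKL and 17.7 CPM in ENR control and did not pass either (0.18), while Pcna, a clamp of DNA replication, fell by 0.51 on the log2 scale. The part of these markers in the Cdkn1a result was not tested.

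Of the genes that feed back on p53, Ccng1 encodes cyclin G1, which brings a phosphatase to MDM2 (chromosome 11, 40748552 to 40755311, minus strand, 6 exons). It had 178, 178 and 168 CPM with RANKL and 62.6, 82.2 and 64.2 CPM in ENR control, a log2 change of 1.31 (SE 0.101, adjusted p = 2.58e-08 by edgeR). All RANKL libraries lay at more than 2 times the highest control, which was replicate 2. With GC offsets the change was 0.68 and still passed, and the 201 genes within 1 percentage point of its GC content of 37.4% had a median of 0.62. Mdm2, the ubiquitin ligase that marks p53 for degradation (chromosome 10, 117688875 to 117710758, minus strand, 9 exons), had 52.9, 57.5 and 57.0 CPM with RANKL, against 42.1, 37.5 and 41.1 CPM in ENR control. Its log2 change of 0.48 (SE 0.0941, adjusted p = 0.000452 by edgeR) was the smallest of the 9 that rose, though no library of one group reached the other.

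Zmat3, a zinc-finger protein that binds RNA and affects splicing (chromosome 3, 32334792 to 32366014, minus strand, 6 exons), had 209, 221 and 217 CPM with RANKL, against 40.5, 38.4 and 41.4 CPM in ENR control. The log2 change was 2.43 (SE 0.0854, adjusted p = 3.42e-12 by edgeR), the smallest adjusted p of the 10. Both groups were tight and well separated.

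Both apoptosis genes rose. Bbc3, which encodes the BH3-only protein PUMA (chromosome 7, 16308393 to 16318205, plus strand, 6 exons), had 13.4, 12.8 and 13.4 CPM with RANKL and 9.79, 7.20 and 8.91 CPM in ENR control. The groups did not overlap, and the log2 change was 0.63 (SE 0.159, adjusted p = 0.00315 by edgeR), or 1.18 with GC offsets. That offset rests on few genes, since only 10 genes tested lay within 1 percentage point of its GC content of 68.6%. Bax, a pore-forming effector of the mitochondrial pathway (chromosome 7, 45461697 to 45466898, minus strand, 5 exons), had 26.7, 27.0 and 26.7 CPM with RANKL, against 14.2, 15.3 and 19.0 CPM in ENR control. RANKL libraries were almost equal and lay above all controls, with a log2 change of 0.74 (SE 0.126, adjusted p = 0.000119 by edgeR). Bax shares 192 exonic bases with Gm45808 on the same strand, so counts there may be split or dropped.

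Trp53inp1, a stress-induced protein that promotes p53 activity and takes part in autophagy (chromosome 4, 11156431 to 11174379, plus strand, 5 exons), had 107, 127 and 118 CPM with RANKL, against 16.1, 21.7 and 18.1 CPM in ENR control. The log2 change of 2.63 (SE 0.116, adjusted p = 3.82e-11 by edgeR) was the largest of the 10 without GC offsets, and 2.20 with them, below the 2.52 of Cdkn1a. Each RANKL library lay far above each control.

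The restraints on growth signalling divided. Phlda3, whose pleckstrin homology domain competes with AKT for membrane lipids (chromosome 1, 135766119 to 135769136, plus strand, 3 exons), had 23.7, 21.0 and 20.5 CPM with RANKL, against 5.38, 6.00 and 6.398 CPM in ENR control. Its log2 change was 1.88 (SE 0.152, adjusted p = 4.47e-08 by edgeR), with groups well apart. Sesn1, a sestrin that lowers mTORC1 activity (chromosome 10, 41809935 to 41908424, plus strand, 11 exons), had 31.4, 29.8 and 29.9 CPM with RANKL, against 30.9, 27.99 and 29.3 CPM in ENR control. The groups overlapped, and the log2 change of 0.05 (edgeR adjusted p = 0.683) had a 95% interval of -0.17 to 0.27. A change as large as that of Mdm2, at 0.48, lies outside this interval. With GC offsets the value was -0.06, which did not pass either.

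**Figure D2:**
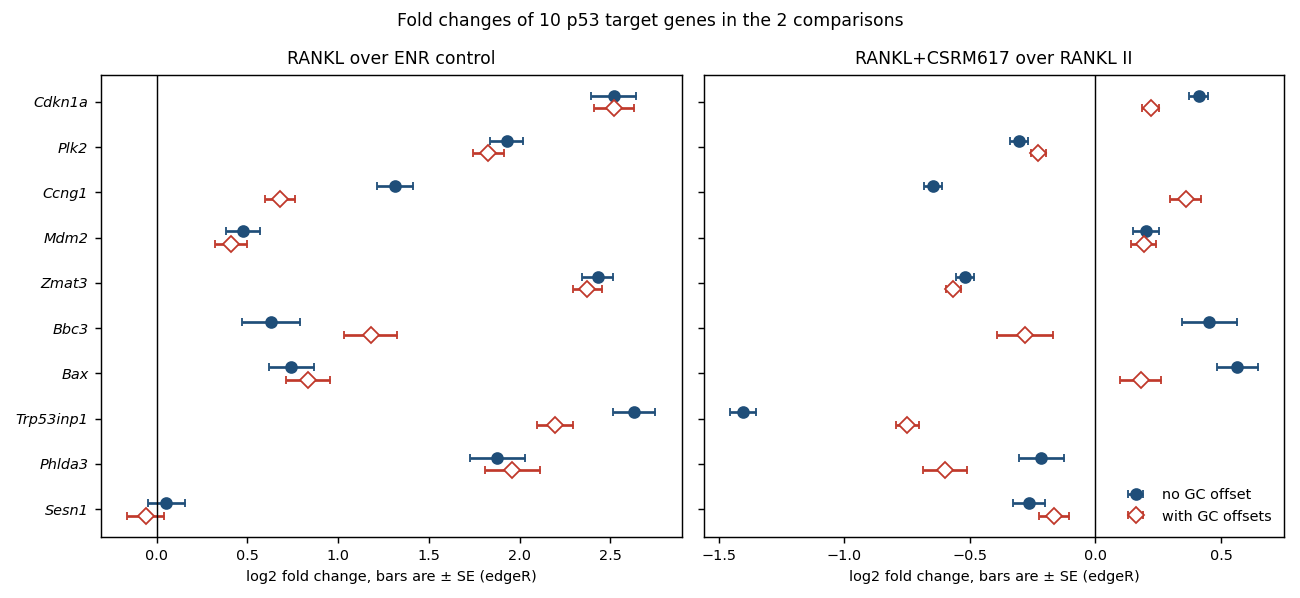
Log2 fold change of each p53 target gene from edgeR, with bars of 1 SE; filled circles are without and open diamonds with GC offsets, and the panels have their own linear axes. In RANKL over ENR control 9 genes lie right of 0 in both fits, from 0.41 to 2.63, while in RANKL+CSRM617 over RANKL II Ccng1 and Bbc3 change sides of 0 with the offsets.

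With CSRM617 on top of RANKL, the 10 genes moved in both directions against RANKL II. Cdkn1a, Mdm2, Bbc3 and Bax rose against RANKL II, by 0.20 to 0.56 on the log2 scale, and Plk2, Ccng1, Zmat3, Trp53inp1, Phlda3 and Sesn1 fell, by 0.22 to 1.40. The count of 4 higher and 6 lower stands beside 71.4% of 14167 genes called by edgeR in this comparison, 35.2% higher and 36.2% lower, so a call in either direction is common here. None of the 10 overlapped between groups in CPM, which held for 36.1% of all genes upward and 37.0% downward. The median log2 change was -0.24 beside -0.02 over all genes, and the 10 genes together took 762 to 763 CPM in RANKL+CSRM617 and 947 to 962 CPM in RANKL II. GC offsets, under which 64.3% of all genes were called, gave 4 higher and 6 lower too, with a median of -0.20, but Ccng1 and Bbc3 exchanged directions. No library is shared with the first comparison, and whether a gene's change differed between the comparisons was not tested. Enterocyte markers gave 5 higher of 5, with sums of 8375 to 8684 CPM in RANKL+CSRM617 and 3389 to 3447 CPM in RANKL II, and Paneth cell markers 3 higher and 1 lower of 4, with 814 to 836 CPM in RANKL+CSRM617 and 545 to 558 CPM in RANKL II. M cell markers gave 3 higher and 3 lower of 6, with 724 to 750 CPM in RANKL+CSRM617 and 718 to 740 CPM in RANKL II, and stem cell markers 2 higher and 1 lower of 4, with 101 to 103 CPM in RANKL+CSRM617 and 82.7 to 86.4 CPM in RANKL II. Their part in the changes of the 10 genes was not tested.

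Cdkn1a had 146, 146 and 139 CPM in RANKL+CSRM617, against 109, 106 and 108 CPM in RANKL II. The CSRM617 libraries all lay higher, with a log2 change of 0.41 (SE 0.0386, adjusted p = 7.51e-13 by edgeR) and 0.22 with GC offsets. Plk2 had 148, 154 and 152 CPM in RANKL+CSRM617, against 186, 182 and 194 CPM in RANKL II, a log2 change of -0.30 (SE 0.0356, adjusted p = 3.48e-10 by edgeR). It thus fell while Cdkn1a rose, although both act on the cell cycle. Proliferation markers gave 5 higher and 2 lower of 8, beside 35.2% of all genes higher and 36.2% lower. With GC offsets they gave 6 higher and 0 lower, beside 33.4% and 30.9% of all genes. The markers summed to 604 to 625 CPM in RANKL+CSRM617 and 381 to 390 CPM in RANKL II. Among the markers Mki67 was at 314 ± 4.41 CPM in RANKL+CSRM617 and 141 ± 3.89 CPM in RANKL II (SD, n = 3), a log2 change of 1.15. Ccnb1 was at 6.31 CPM in RANKL+CSRM617 and 6.02 CPM in RANKL II and did not pass. Pcna fell by 0.30 and rose by 0.27 with GC offsets. The part of these markers in the result was not tested.

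Ccng1 had 107, 108 and 106 CPM in RANKL+CSRM617, against 167, 167 and 169 CPM in RANKL II. Replicates hardly varied, and the log2 change was -0.65 (SE 0.0368, adjusted p = 6.47e-20 by edgeR). With GC offsets the direction reversed to 0.36 (SE 0.0608, adjusted p = 0.000247 by edgeR). Over all alternatives (edgeR, DESeq2 and limma) the log2 change ran from -0.69 to 0.36, positive only with GC offsets. The adjusted p of those fits, of either direction, ran from 5.63e-64 to 0.000247. The 215 genes tested within 1 percentage point of its GC content had a median of -1.11, so Ccng1 lay above them while it lay below most genes. Mdm2 had 65.2, 65.5 and 67.1 CPM in RANKL+CSRM617, against 55.5, 57.6 and 58.8 CPM in RANKL II. Its rise of 0.20 (SE 0.0518, adjusted p = 0.000647 by edgeR) was the smallest of the 4 and 0.19 with GC offsets.

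Zmat3 had 154, 148 and 157 CPM in RANKL+CSRM617, against 225, 228 and 207 CPM in RANKL II, a log2 change of -0.52 (SE 0.037, adjusted p = 1.67e-16 by edgeR) and -0.57 with GC offsets. The fall was thus as large with the offsets, at a GC content of 50.7% where the surrounding genes had a median of 0.04.

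Bbc3 had 12.4, 13.1 and 13.9 CPM in RANKL+CSRM617, against 9.22, 9.48 and 10.1 CPM in RANKL II, a log2 change of 0.45 (SE 0.109, adjusted p = 0.0003 by edgeR). The groups did not overlap in CPM. With GC offsets the value was -0.28 (SE 0.113, adjusted p = 0.0216 by edgeR), an offset for which only 8 genes tested lay as near in GC content. Over all alternatives (edgeR, DESeq2 and limma) the log2 change ran from -0.28 to 0.50, negative only with GC offsets. The adjusted p of those fits, of either direction, ran from 0.000224 to 0.024. Bax had 27.7, 28.7 and 24.5 CPM in RANKL+CSRM617, against 17.6, 18.2 and 18.7 CPM in RANKL II. Its log2 change of 0.56 (SE 0.0824, adjusted p = 6.69e-08 by edgeR) was the largest rise of the 10 without GC offsets and 0.18 with them, where it passed.

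Trp53inp1 had 43.9, 42.5 and 50.0 CPM in RANKL+CSRM617, against 127, 119 and 116 CPM in RANKL II. This 2.64-fold fall, a log2 change of -1.40 (SE 0.0525, adjusted p = 8.19e-26 by edgeR), was the largest change of the 10, and it was -0.75 with GC offsets. Phlda3 had 17.4, 16.04 and 18.0 CPM in RANKL+CSRM617, against 19.2, 19.2 and 21.1 CPM in RANKL II. The groups lay close without overlap, and the log2 change of -0.22 (SE 0.0882, adjusted p = 0.0277 by edgeR) depended on the fit. DESeq2 gave -0.20 (adjusted p = 0.2). Leaving out RANKL+CSRM617 replicate 1 or 2 or RANKL II replicate 3 gave -0.21, -0.15 and -0.16 and ended the call, while GC offsets gave -0.60. Over all alternatives (edgeR, DESeq2 and limma) the adjusted p ran from 1.07e-10 to 0.2. Sesn1, which had not passed with RANKL, had 40.5, 38.7 and 35.01 CPM in RANKL+CSRM617, against 46.1, 46.7 and 44.1 CPM in RANKL II. It fell by 0.26 on the log2 scale (SE 0.0629, adjusted p = 0.000255 by edgeR) and by 0.16 with GC offsets, with no overlap between groups.

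**Figure D3:**
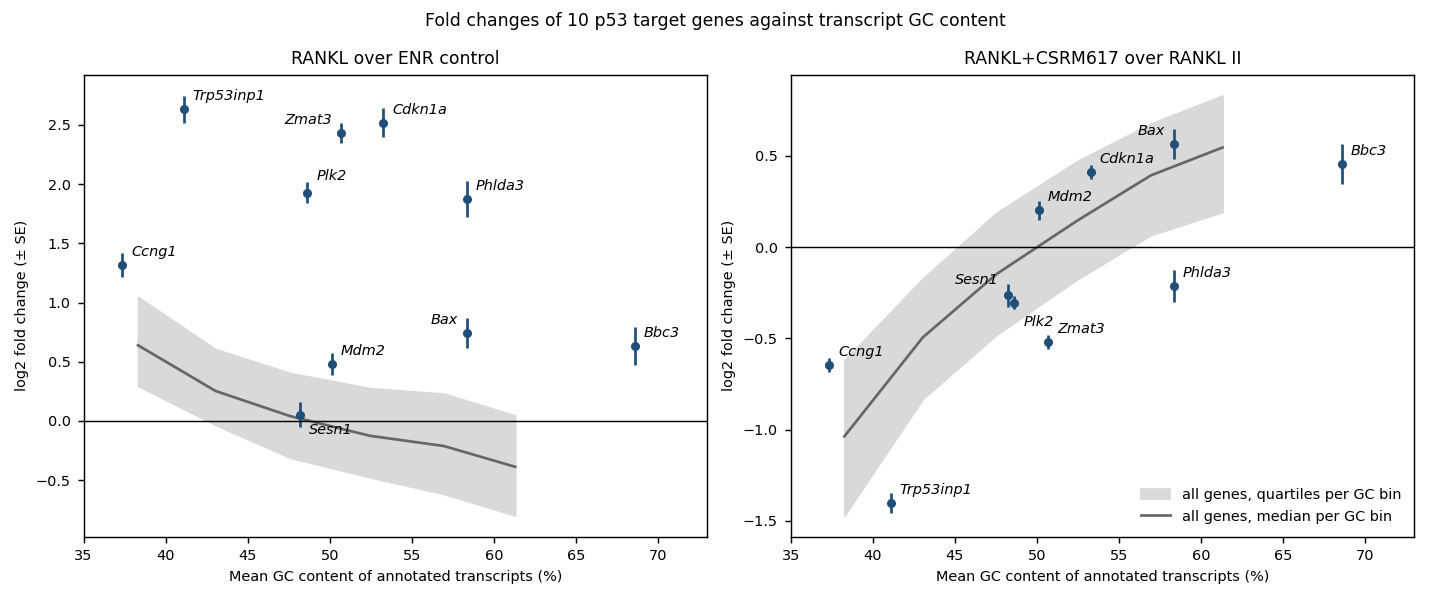
Log2 fold change of each p53 target gene (points, bars 1 SE) against the mean GC content of its annotated transcripts in percent, with the median (line) and quartiles (band) of all genes tested in 6 bins of GC content, drawn at each bin's median GC. In RANKL over ENR control the bin medians run down to -0.39 at the highest GC content and all genes but Sesn1 lie above the band or, for Ccng1 and Bbc3, beyond its ends, while in RANKL+CSRM617 over RANKL II the medians climb with GC content, and Zmat3, Phlda3 and Trp53inp1 lie below the band.

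In RANKL over ENR control the median log2 change of all genes was 0.64 over 626 genes under 40% GC and -0.39 over 516 genes at 60% or more. For RANKL+CSRM617 over RANKL II it was -1.04 over 668 genes and 0.55 over 522 genes at the same ends. The 10 genes spanned nearly that whole range, with Ccng1 at 37.4% and Trp53inp1 at 41.1% at the low end and Bbc3 at 68.6%, Bax at 58.4% and Phlda3 at 58.4% at the high end. Zmat3, Trp53inp1 and Phlda3 differed from the median of the genes within 1 percentage point of their GC content by -0.56, -0.74 and -0.67 on the log2 scale in RANKL+CSRM617 over RANKL II. Whether the trend with GC content comes from the libraries or from the cells was not tested.

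Levels can be compared between genes only per length, here as CPM per kilobase of exon (FPKM). In RANKL, Ccng1 was the highest at 49.7 ± 1.64 FPKM, followed by Cdkn1a at 30.2 ± 4.28 and Plk2 at 27.98 ± 1.15 FPKM, which overlapped (SD, n = 3). Zmat3, Trp53inp1 and Bax followed with overlapping neighbours at 17.0 to 18.9 FPKM, then Phlda3 at 13.9, Mdm2 at 10.98, Sesn1 at 7.63 and Bbc3 at 6.20 FPKM. ENR control had a flatter order, with Ccng1 at 19.8 ± 3.10 and Bax at 10.3 ± 1.58 FPKM on top and the other 8 genes between 2.88 and 7.91 FPKM. Mdm2, Sesn1 and Plk2 overlapped there as neighbours, as did Bbc3, Phlda3 and Zmat3. Trp53inp1 was the lowest of the 10 in ENR control and mid-order in RANKL. In RANKL+CSRM617 the order was led by Cdkn1a at 40.4 ± 1.14 FPKM, Plk2 at 33.8 ± 0.698 and Ccng1 at 30.5 ± 0.362 FPKM, without overlap, and in RANKL II by Ccng1 at 47.7 ± 0.27, Plk2 at 41.7 ± 1.45 and Cdkn1a at 30.4 ± 0.373 FPKM. Bbc3 was the lowest in each of these 2 groups, at 6.19 FPKM in RANKL+CSRM617 and 4.52 FPKM in RANKL II.

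The gene for p53 itself changed little. Trp53 had 152, 148 and 137 CPM in RANKL, against 118, 119 and 113 CPM in ENR control, a log2 change of 0.32 (SE 0.08, adjusted p = 0.00284 by edgeR). In RANKL+CSRM617 it had 94.8, 99.6 and 98.2 CPM, against 90.0, 92.5 and 93.2 CPM in RANKL II, and did not pass at 0.09 (edgeR adjusted p = 0.0674); with GC offsets it passed in the other direction at -0.16. The mRNA level does not measure the stability of the protein, which is where p53 is mainly controlled. Its relatives Trp63 and Trp73 had at most 1 and 3 counts in any library and were not tested.

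Of the 14 tested genes for p53 and its regulators, 5 rose and 6 fell with RANKL by edgeR, and 4 rose and 10 fell with GC offsets. Beside these counts, 28.7% of all genes were higher and 28.0% lower, or 22.1% and 34.5% with GC offsets. Cdkn2a, which encodes the CDK inhibitor p16 and, in another frame, the MDM2 antagonist p19ARF, had 16.3, 14.01 and 19.1 CPM in RANKL, against 0.384, 0.3998 and 0.457 CPM in ENR control. Only 2 or 3 counts per control library lie behind those values, and counts per symbol do not separate the 2 products. The log2 change was 5.26 (SE 0.301, adjusted p = 6.66e-10 by edgeR). Mdm4, a partner of MDM2 that inhibits p53, rose by 1.05 and Cop1, a ubiquitin ligase, by 1.06. The checkpoint kinase genes Chek1 and Chek2 fell by 0.82 and 0.57. Ppp1r13l and Ppp1r13b, which encode related proteins that bind p53, fell by 0.72 and 0.43.

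With CSRM617, 4 of these 14 rose and 6 fell, or 6 and 5 with GC offsets. Calls were as common over all genes, with 35.2% higher and 36.2% lower, or 33.4% and 30.9% with GC offsets. Mdm4 fell to 236 ± 8.89 CPM in RANKL+CSRM617, against 386 ± 5.50 CPM in RANKL II (SD, n = 3, log2 change -0.71, edgeR adjusted p = 5.25e-24), and by 0.30 with GC offsets. Cop1 fell by 0.87, and Atm and Atr, which encode kinases that signal DNA damage to p53, by 0.75 and 0.84. With GC offsets Atr reversed to 0.17 and passed, while Cop1 was at -0.40 and Atm at -0.25. Ppp1r13l rose by 0.89, Ppp1r13b by 0.81, Hipk2, a kinase that phosphorylates p53, by 0.31 and Trp53bp1, a DNA damage adaptor, by 0.23, and Ppp1r13l was at 0.43 with GC offsets.

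A further 35 known p53 targets gave 16 higher and 8 lower of 34 tested with RANKL, beside 28.7% of all genes higher and 28.0% lower. With GC offsets they gave 14 higher and 10 lower, beside 22.1% of all genes higher and 34.5% lower. Their median log2 change without offsets was 0.24, beside 1.60 for the 10 genes. Both sets were chosen with earlier results of these data known, so the gap between these medians is no test. Eda2r, a receptor of the TNF receptor family, rose by 3.04, Pmaip1, which encodes the BH3-only protein NOXA, by 2.77, the receptor kinase gene Epha2 by 1.30, and the TRAIL receptor gene Tnfrsf10b by 1.18. Those with the smallest p among the 8 that fell were Ddb2 and Xpc of nucleotide excision repair at -1.01 and -0.58, E2f7, a repressor of E2F genes, at -1.05, and Pidd1, a scaffold for caspase-2, at -0.96. These other targets thus moved in both directions with RANKL.

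In RANKL+CSRM617, 15 of these 34 were higher and 12 lower, beside 35.2% of all genes higher and 36.2% lower. With GC offsets 11 were higher and 12 lower, beside 33.4% of all genes higher and 30.9% lower. Eda2r fell by 1.62, Perp, a membrane protein of desmosomes and apoptosis, by 0.94, Rps27l by 0.93 and Pmaip1 by 0.64, which GC offsets took to -0.04 and out of the call. Sesn2, another sestrin gene, rose by 0.90, Sfn, which encodes 14-3-3 sigma, by 0.81 and Epha2 by 0.38. With GC offsets Sesn2 was at 0.51, Sfn at 0.39, Epha2 at 0.07 and Rps27l at -0.22, and all 4 still passed. Sesn2 thus rose while its paralogue Sesn1 fell.

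**Figure D4:**
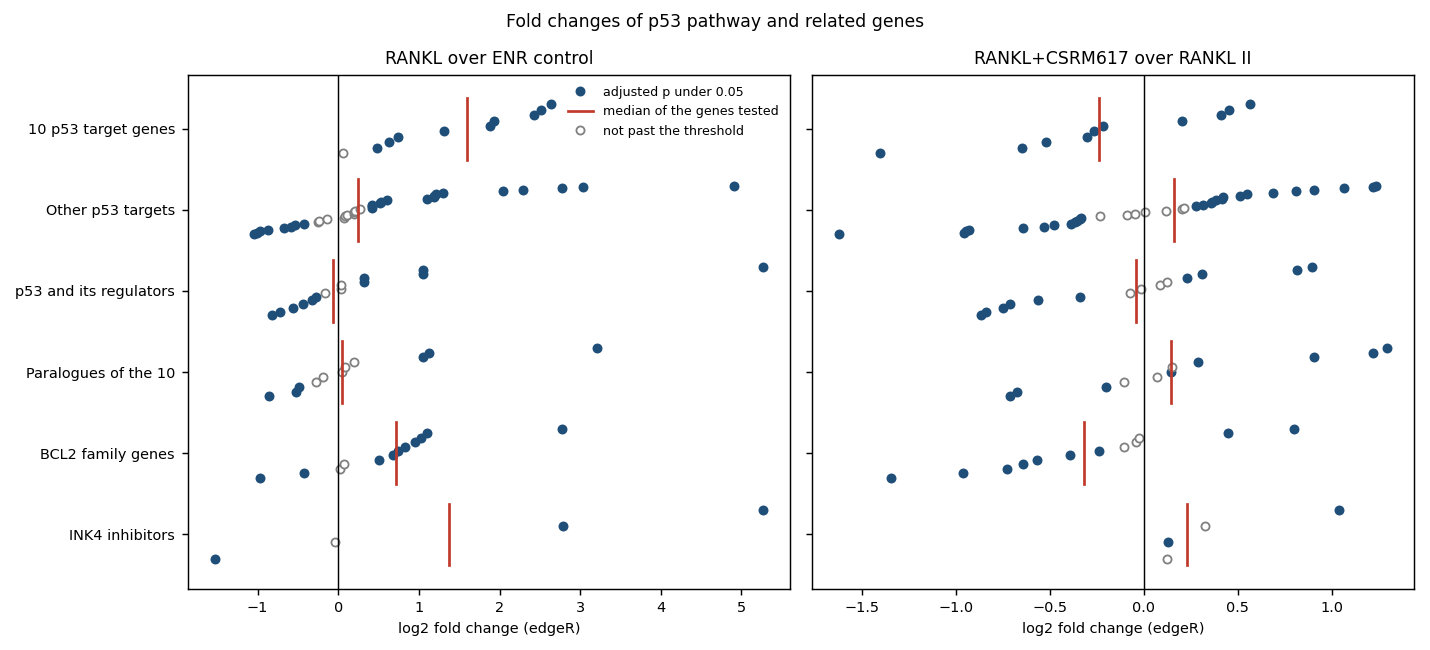
Log2 fold changes from edgeR of the genes tested in 6 lists, with a point per gene, filled where the adjusted p was under 0.05 and open otherwise; red bars are medians, small vertical steps within a list only separate points, and the panels have their own axes. The 10 p53 target genes have a median of 1.60 in RANKL over ENR control, and the other lists spread to both sides of 0 in both comparisons apart from INK4 inhibitors in RANKL+CSRM617 over RANKL II. All lists were chosen with earlier results of these data known.

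Paralogues of the 10 genes gave 3 higher and 3 lower of 11 tested with RANKL, or 3 and 4 with GC offsets, a share of calls close to the 56.7% over all genes. Trp53inp2, a relative of Trp53inp1 with a part in autophagy, rose by 3.21 and Ccng2, the other cyclin G gene, by 1.13, with Mdm4 as above. Cdkn1b, which encodes p27, fell by 0.48, the mitotic kinase gene Plk1 by 0.52 and Phlda1 by 0.86. The CDK inhibitor genes of this family thus went apart, with Cdkn1a higher and Cdkn1b lower. In RANKL+CSRM617, 5 were higher and 3 lower, or 5 and 4 with GC offsets, beside 71.4% of all genes called. Plk1 rose by 1.29, Plk3, a stress-responsive kinase gene, by 1.22, and Trp53inp2 by 0.29, which GC offsets turned to -0.09 without a call. Cdkn1b fell by 0.68 and Phlda1 by 0.20, or by 0.29 and 0.49 with GC offsets.

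The BCL2 family beside Bbc3 and Bax gave 8 higher and 2 lower of 12 tested with RANKL, with a median log2 change of 0.71, and 8 and 1 with GC offsets. Over all genes 28.7% were higher and 28.0% lower, or 22.1% and 34.5% with GC offsets. Beside Pmaip1, the pro-apoptotic Bcl2l11, which encodes BIM, rose by 1.03, and so did the pro-survival genes Bcl2l1 by 0.83 and Mcl1 by 0.74. Bcl2, also pro-survival, fell by 0.97, and Bad, a pro-apoptotic BH3-only gene, by 0.42, which no longer passed with GC offsets (-0.32). In RANKL+CSRM617, 2 were higher and 7 lower, or 1 and 9 with GC offsets, beside 35.2% of all genes higher and 36.2% lower, or 33.4% and 30.9% with GC offsets. Among those that fell were Bcl2l11 at -1.35, Bmf, another BH3-only gene, at -0.96, and Mcl1 at -0.39. Bak1, the effector related to Bax, rose by 0.80, or 0.44 with GC offsets, and Bad by 0.45, which was 0.06 and not called with GC offsets. Genes for and against apoptosis thus stood among both the higher and the lower calls with RANKL.

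Of the INK4 inhibitors, a family of CDK4 and CDK6 inhibitors that does not include Cdkn1a, Cdkn2b rose to 80.2 ± 6.83 CPM in RANKL, against 11.9 ± 3.03 CPM in ENR control (SD, n = 3, log2 change 2.79, edgeR adjusted p = 2.8e-10). Cdkn2a rose too, and Cdkn2c fell by 1.53, so 2 of 4 were higher and 1 lower, beside 28.7% and 28.0% of all genes. With CSRM617 Cdkn2c rose by 1.04 and Cdkn2b by 0.13, which GC offsets reversed to -0.18. These offsets gave 1 higher and 2 lower of the 4, beside 33.4% of all genes higher and 30.9% lower.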

How the data were processed

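The authors deposited raw counts per gene symbol in 1 table per comparison. The tools named in the submitters' processing notes are STAR, HTSeq 0.13.5 and DESeq2 1.34.0, and the build is mm10, which is GRCm38. Per the labels, 1 µg of total RNA was depleted of ribosomal RNA and read as 42-bp pairs. Normalized tables deposited by the authors hold log2 values and cover the genes with at least 10 raw counts in all. The annotation and the strand option used for counting were not given in the sources used here. The 10 genes and the gene lists were chosen with earlier results of these data known.

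Counts of the 6 libraries of each table were tested with edgeR 4.0.16 in R 4.3.3 (quasi-likelihood, robust, TMM factors, filterByExpr defaults, no covariate, two-sided), with Benjamini-Hochberg adjustment over all genes tested and a threshold of 0.05. SE is the unshrunken log2 change over the square root of F. On simulated data with known changes, 6.4% of the calls were false in the first comparison and 7.5% in the second. Changes of 1.25-fold were recovered in 10% and 66% of cases, and changes of 2-fold in 84% in each. FPKM used union exon lengths of GENCODE vM21 (GRCm38), which matched 53647 of 55335 entries, and 109 repeated symbols were kept as separate entries. GC offsets were loess fits (span 0.4) per library of log2 CPM deviations on mean transcript GC content. Besides the 10 genes, Trp53, Trp63, Trp73 and Mdm4 were named throughout, along with up to 4 higher and 4 lower genes per list and comparison by smallest p; a gene on several lists counts under each. A gene that this rule named is not reported here. Alternatives were RLE factors, upper-quartile factors, DESeq2 1.42.0, scaling without ribosomal and mitochondrial counts, no filter and a stricter filter (CPM of 1 in 3 libraries and 100 counts), limma 3.58.1 on the log2 tables, a replicate block, GC offsets, both together, and leaving out each library.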

Additional observations from a re-analysis of the deposited data

How the results depend on the processing

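In RANKL over ENR control, 9 of the 10 genes were called higher and 0 lower under every alternative run, and in RANKL+CSRM617 over RANKL II 9 or 10 were called, 4 of them higher. Over all genes, without the alternatives, 28.7% were higher and 28.0% lower with RANKL, and 35.2% and 36.2% with CSRM617. Sesn1 reversed with RANKL to -0.061 with GC offsets and to -0.064 with those and the replicate block. With CSRM617, Ccng1 reversed to 0.36 and 0.36 and Bbc3 to -0.28 and -0.28 in the same 2 fits, and Phlda3 lost its call with DESeq2 (-0.20) and ran from -0.25 to -0.15 with each library left out. Over all genes tested, GC offsets moved the median log2 change with RANKL to -0.11 and the calls to 2994 higher and 4684 lower, against 3897 higher and 3802 lower without them. Of the log2 changes of the 10 genes over the alternatives, 158 of 160 with RANKL and 152 of 160 with CSRM617 kept their direction and their side of the threshold. The other p53 targets called numbered 22 to 25 with RANKL and 23 to 28 with CSRM617. Without the alternatives 34 of them were tested, and 56.7% of all genes were called with RANKL and 71.4% with CSRM617.

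The replicate block gave 9 and 10 called genes, as without it, and changed no other call of the 10 genes. Same-numbered libraries did not deviate together, with correlations of -0.01 to 0.06 with RANKL and -0.01 to 0.01 with CSRM617. With 3 libraries per group this cannot tell whether the numbers pair them. Depth limits Bbc3 and Phlda3 most, at 28 to 54 counts per ENR control library.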

Other observations

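RANKL and RANKL II had the same labelled treatment but stand in tables that were scaled separately, so their levels are given side by side and were not tested. Cdkn1a averaged 107 ± 15.2 CPM in RANKL and 108 ± 1.33 CPM in RANKL II, and Zmat3 216 ± 5.81 CPM in RANKL and 220 ± 11.5 CPM in RANKL II (SD, n = 3). Plk2 stood at 126 ± 5.15 CPM in RANKL and 187 ± 6.53 CPM in RANKL II, Sesn1 at 30.4 ± 0.893 CPM in RANKL and 45.6 ± 1.38 CPM in RANKL II, and Bax at 26.8 ± 0.184 CPM in RANKL and 18.2 ± 0.526 CPM in RANKL II. Mki67 was at 534 ± 51.9 CPM in RANKL and 141 ± 3.89 CPM in RANKL II. For Plk2 and Sesn1 the gap between these sets, in CPM, is larger than the gap of the same genes between RANKL+CSRM617 and RANKL II. In RANKL+CSRM617 Plk2 stood at 152 ± 3.13 CPM and Sesn1 at 38.1 ± 2.78 CPM.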
